A study of Mus musculus with 4 samples.

Results

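The genes described here make cholesterol, sense it and move it: 20 enzymes of cholesterol synthesis, 5 genes of the SREBP switch that sets their transcription, 3 carriers of sterol inside the cell, and the LXR receptors with 3 of their targets. They were chosen by gene symbol from the textbook pathway, with earlier results of these data known. All 33 were found among the 56691 genes of the deposited count table. RNA was sequenced from primary cardiac fibroblasts of wild-type mouse hearts, taken between postnatal days 1 and 3 and given the cardiac transcription factors Mef2c, Gata4 and Tbx5, together named MGT. The MGT+shScd1 group (2 libraries) also carried a short hairpin RNA against Scd1, and the MGT+shNT group (2 libraries) a non-targeting hairpin. Both groups were taken at day 7, when the labels call the cells induced cardiomyocyte-like cells (iCM), so the reprogramming factors are common to all 4 libraries and no library without them was compared. A single hairpin name stands for Scd1 in the labels, and the labels do not say whether the replicates came from separate cultures, so p-values measure the spread between these libraries, which may be technical.

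Cells build cholesterol from acetyl-CoA through mevalonate, isoprenoid diphosphates, squalene and lanosterol. When membrane sterol is low, SCAP carries SREBP-2 from the endoplasmic reticulum to the Golgi, where it is cut and released to switch on the synthesis genes, and INSIG proteins hold SCAP back when sterol is plentiful. LXR receptors work in the opposite direction: oxysterols activate them, and their targets pump cholesterol out or limit its uptake. SCD1, the desaturase that the hairpin targets, makes monounsaturated fatty acids and is itself a known target of SREBP-1 and LXR. In heart tissue, fibroblasts and resident macrophages both express sterol efflux pumps.

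The libraries held between 15135227 and 20894972 counts. MGT+shNT library 2 stood apart in that 3.32% of its counts fell on the ribosomal RNA gene Rn18s-rs5, against 0.141% and 0.129% in MGT+shScd1 libraries 1 and 2 and 0.199% in MGT+shNT library 1. Levels are given as CPM, in which each count is divided by the effective library size after TMM, or as the deposited FPKM where genes are set side by side per length. Scd1 was present at 6.64 and 8.04 CPM in MGT+shScd1 libraries 1 and 2, against 84.4 and 63.5 CPM in MGT+shNT libraries 1 and 2. Its log2 fold change was -3.34 (SE 0.14; adjusted p = 4.31e-09 in edgeR's quasi-likelihood test, adjusted over all genes by Benjamini-Hochberg). Summed over 12 fibroblast markers the level was 27695 and 29015 CPM in MGT+shScd1 and 37945 and 36928 CPM in MGT+shNT (8 lower, 1 higher), and over 10 cardiomyocyte markers it was 5992 and 6017 CPM in MGT+shScd1 and 5257 and 6074 CPM in MGT+shNT (3 lower, 4 higher). The cardiomyocyte sum hides shifts of single markers in both directions, with log2 fold changes from -1.35 (Nppa) to 1.52 (Actn2). The 10 endothelial markers summed to 27.5 and 28.8 CPM in MGT+shScd1, against 38.5 and 31.0 CPM in MGT+shNT; of the 9 tested, edgeR called 2 lower and 0 higher, with 0 higher also at an unadjusted p below 0.05, there and in DESeq2. The 10 epicardial markers summed to 308 and 325 CPM in MGT+shScd1, against 426 and 410 CPM in MGT+shNT (6 lower, 1 higher). In bulk RNA, fewer cells of a type and less RNA per cell cannot be told apart.

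The RefSeq promoter windows (GRCm38.p6, 250 bases before to 50 after an annotated start) held 27 of the 33 genes. Fdft1, Sqle, Fdps, Stard4, Npc1 and Abcg1 were not analysed for promoter sequence. The windows of Insig1, Hmgcs1, Abca1 and Srebf1 are shown because between them they hold each motif searched: the sterol regulatory element TCACNCCAC that SREBP binds, the box CCAAT that its partner NF-Y binds, and the LXR element DR4, taken as 2 copies of GGTNA in the same direction with 5 bases between them, each looked for on both strands. Capitals mark the matches. ATTGG is CCAAT read on the other strand, and the half-sites of a DR4 read TNACC there. In these 4 windows no motif overlapped another.
Insig1, chr5:28071162-28071461, plus strand: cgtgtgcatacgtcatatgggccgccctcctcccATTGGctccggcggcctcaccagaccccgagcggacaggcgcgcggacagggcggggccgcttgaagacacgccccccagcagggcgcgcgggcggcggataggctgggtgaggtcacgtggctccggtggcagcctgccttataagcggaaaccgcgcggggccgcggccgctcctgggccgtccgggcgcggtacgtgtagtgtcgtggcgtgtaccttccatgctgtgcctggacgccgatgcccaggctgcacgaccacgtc
Hmgcs1, chr13:119690101-119690400, plus strand: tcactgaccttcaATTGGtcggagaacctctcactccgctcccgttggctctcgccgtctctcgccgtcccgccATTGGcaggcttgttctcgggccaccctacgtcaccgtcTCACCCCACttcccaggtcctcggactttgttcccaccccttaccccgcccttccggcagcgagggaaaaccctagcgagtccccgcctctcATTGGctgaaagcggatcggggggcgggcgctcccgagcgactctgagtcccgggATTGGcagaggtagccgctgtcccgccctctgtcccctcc
Abca1, chr4:53159846-53160145, minus strand: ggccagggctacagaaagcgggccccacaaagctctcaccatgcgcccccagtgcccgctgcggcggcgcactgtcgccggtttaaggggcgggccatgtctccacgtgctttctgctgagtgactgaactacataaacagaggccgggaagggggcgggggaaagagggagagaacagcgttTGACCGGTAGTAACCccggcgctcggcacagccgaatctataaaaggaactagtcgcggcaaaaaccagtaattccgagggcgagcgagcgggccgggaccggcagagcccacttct
Srebf1, chr11:60210422-60210721, minus strand, 1 of its 3 windows: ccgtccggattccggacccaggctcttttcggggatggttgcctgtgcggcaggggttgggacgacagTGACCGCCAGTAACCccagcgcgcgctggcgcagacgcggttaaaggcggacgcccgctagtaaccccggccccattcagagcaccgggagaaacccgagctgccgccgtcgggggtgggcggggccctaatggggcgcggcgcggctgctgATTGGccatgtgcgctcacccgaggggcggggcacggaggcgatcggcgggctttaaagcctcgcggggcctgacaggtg

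In the Hmgcs1 window the sterol element lay at -137 to -129 from the start site, with CCAAT boxes on the opposite strand beginning at -237, -176, -45 and +10. Positions count bases away from the start base, so +10 lies 10 bases past it. The Insig1 window held 1 CCAAT box, at -216 to -212. The DR4 of Abca1 lay at -67 to -53, and that of Srebf1 at -182 to -168, with a CCAAT box at -30 to -26. Across the 27 genes with a window, 22 (81.5%) held a CCAAT box in at least 1 window, against 41.1% of all 27025 gene symbols in the table. It was found in 20 of 22 synthesis and SREBP genes and in 1 of 4 LXR-side genes, which was Mylip. A sterol element was found in 1 of the 27 (3.70%, Hmgcs1), against 1.44% of all symbols, and a DR4 in 2 (7.41%, Abca1 and Srebf1), against 0.818%. These matches describe letters in the windows. They are not measured binding sites.

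Per length, the most abundant of the 33 genes was Npc2, which encodes the soluble protein that takes cholesterol out of lysosomal lipoprotein. It had 60.9 and 59.7 FPKM in MGT+shScd1, against 62.3 and 56.4 FPKM in MGT+shNT. Nr1h2 (LXR beta) followed at 18.5 and 19.8 FPKM in MGT+shScd1 and 20.7 and 18.8 FPKM in MGT+shNT. Next came Hmgcs1, at 16.1 and 17.3 FPKM in MGT+shScd1 and 19.0 and 16.3 FPKM in MGT+shNT, and Srebf2, at 16.4 and 16.8 FPKM in MGT+shScd1 and 16.2 and 14.95 FPKM in MGT+shNT. Nr1h2 was above Srebf2 in every library. Hmgcs1 overlapped Nr1h2 in MGT+shNT and Srebf2 in MGT+shScd1, so its place between them is not fixed beyond the spread of the libraries. This order is by the mean over the 4 libraries. Abca1 had 11.8 and 12.8 FPKM in MGT+shScd1, against 20.9 and 13.4 FPKM in MGT+shNT. It was above Nr1h2 in MGT+shNT library 1 and below Srebf2 in the other libraries. Lowest in MGT+shScd1 was Abcg1, at 1.28 and 1.39 FPKM in MGT+shScd1 and 3.06 and 2.11 FPKM in MGT+shNT, and lowest in MGT+shNT was Tm7sf2, at 1.85 and 2.01 FPKM in MGT+shScd1 and 1.74 and 1.79 FPKM in MGT+shNT. Of the LXR receptors, Nr1h3 (LXR alpha) was the less abundant, at 6.85 and 6.41 FPKM in MGT+shScd1 and 6.24 and 5.99 FPKM in MGT+shNT. Total counts over the 4 libraries were between 585 (Pmvk) and 24109 (Npc2), and all 33 genes passed the filter on low counts.

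**Figure D1:**
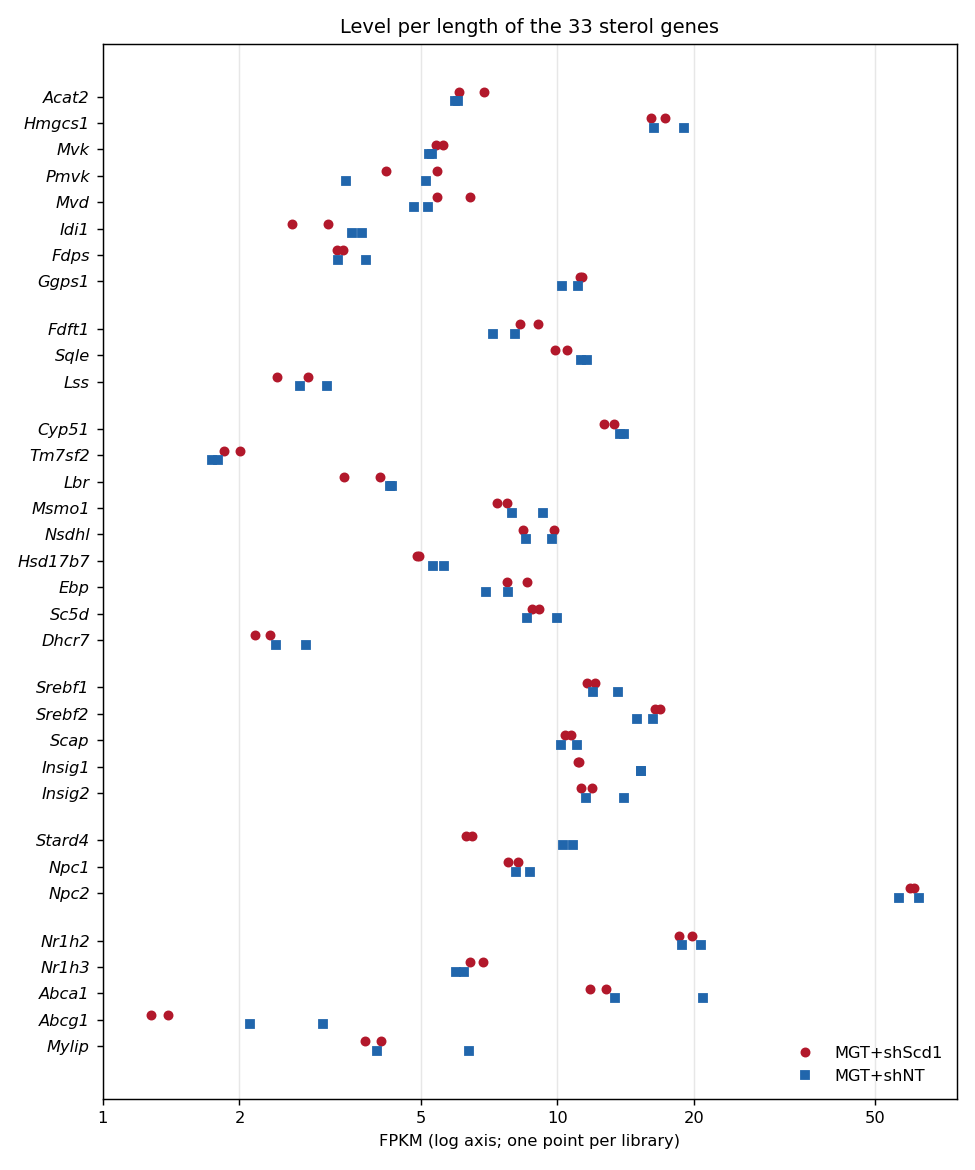
Deposited FPKM of the 33 genes on a log axis, in pathway order, with 1 point per library (red circles MGT+shScd1, blue squares MGT+shNT). Npc2 lies highest, between 56.4 and 62.3 FPKM, and Abcg1 reaches lowest, at 1.28 FPKM in MGT+shScd1 library 1; the points of most genes sit close together, and Insig1, Stard4 and Abcg1 show a gap between the groups.

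With Scd1 knocked down, 9 of the 33 genes fell, none rose and 24 did not pass the test (edgeR, adjusted p below 0.05). Over all 16234 genes tested, 29.3% were called, 13.1% higher and 16.3% lower. The 9 that fell were Idi1, Sqle and Msmo1 among the enzymes, Srebf1 and Insig1 in the SREBP switch, the sterol carrier Stard4, and Abca1, Abcg1 and Mylip on the LXR side. As a share that is 27.3% lower, against 16.3% of all genes. At an unadjusted p below 0.05, 17 of the 33 genes were lower and 0 higher, where 21.2% of all genes tested were lower and 18.3% higher, and 0 were called higher by DESeq2 or limma-voom. The median log2 fold change of the 33 was -0.18, against 9.4e-05 over all genes tested, and 26 were below 0. In CPM, the groups did not overlap for 22 of the 33, all of them lower in MGT+shScd1, where 32.3% of all genes were lower without overlap and 32.0% higher.

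The small differences depended on the scale. In the deposited FPKM, which divides by the whole library total, 11 of the 33 genes were lower without overlap and 8 higher (Nr1h3, Mvd, Fdft1, Ggps1, Srebf2, Acat2, Tm7sf2 and Mvk). Over all genes tested the shares on that scale were 22.4% lower and 42.2% higher. On log2(FPKM + 1) the median of the 33 was -0.069 beside 0.048 over all genes, 22 were below 0, and limma called 2 of them lower, Insig1 and Stard4. These 2 were also called lower in each of the other 11 alternatives run, including each library left out in turn. DESeq2 called 3 of the 33 lower.

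**Figure D2:**
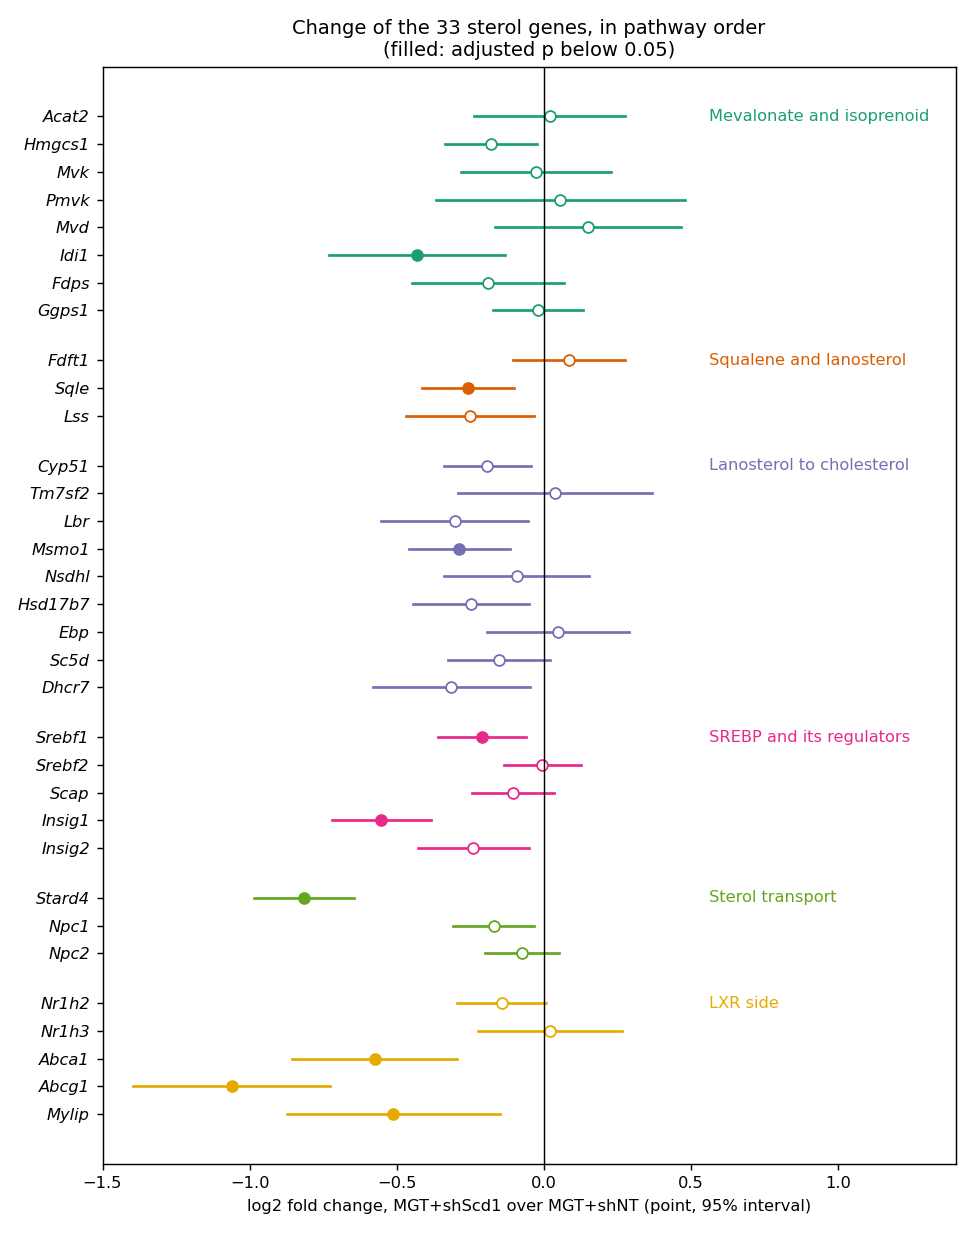
Log2 fold change of the 33 genes, MGT+shScd1 over MGT+shNT, with 95% intervals from the edgeR fit, in pathway order from the mevalonate enzymes at the top to the LXR side at the bottom; filled points passed at an adjusted p below 0.05. The 9 filled points all lie below 0, from -0.21 (Srebf1) to -1.06 (Abcg1), and the intervals of most enzymes reach close to or across 0.

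Of the 8 mevalonate and isoprenoid enzymes 1 fell, and their median log2 fold change of -0.022 was the nearest to 0 of the 6 groups by role. Idi1, which isomerizes isopentenyl diphosphate (GRCm38 chromosome 13, 8885501 to 8892451, plus strand), had 8.86 and 10.6 CPM in MGT+shScd1 libraries 1 and 2, against 13.2 and 13.1 CPM in MGT+shNT libraries 1 and 2. Both MGT+shScd1 libraries were lower, MGT+shScd1 library 1 the more so. The log2 fold change was -0.43 (SE 0.14, 95% interval -0.73 to -0.13, adjusted p = 0.0319). Without MGT+shScd1 library 1 it was -0.31 (adjusted p = 0.281). Each of the 5 annotated pseudogenes of Idi1 had between 0 and 3 counts over the 4 libraries.

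Hmgcs1, the HMG-CoA synthase that feeds the mevalonate pathway, had 71.5 and 76.9 CPM in MGT+shScd1, against 88.3 and 79.4 CPM in MGT+shNT. It missed the threshold at a log2 fold change of -0.18 (adjusted p = 0.0797), and with each library left out it was between -0.25 and -0.089. Fdps, which makes farnesyl diphosphate, had 13.8 and 13.4 CPM in MGT+shScd1, against 16.2 and 14.7 CPM in MGT+shNT (log2 fold change -0.19, adjusted p = 0.267). The other 5 lay between -0.025 and 0.15: acetoacetyl-CoA thiolase (Acat2), the kinases Mvk and Pmvk, the decarboxylase Mvd, and Ggps1, which makes geranylgeranyl diphosphate. Their groups overlapped in CPM. For Ggps1, at 51.2 and 51.7 CPM in MGT+shScd1 and 53.0 and 51.1 CPM in MGT+shNT, the 95% interval of the log2 fold change reached from -0.17 to 0.13. Ggps1 shares 257 exonic bases with Arid4b on the opposite strand, which had 6176 counts against 3832 for Ggps1, and no source used here gives the strand setting of the counting.

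From squalene to lanosterol, 1 of 3 genes fell. Sqle, squalene epoxidase and a rate-limiting step of the pathway (chromosome 15, 59315077 to 59331192, plus strand), had 56.4 and 53.3 CPM in MGT+shScd1, against 63.2 and 68.1 CPM in MGT+shNT. Both MGT+shScd1 libraries were below both MGT+shNT libraries, at a fold change of -0.26 on the log2 scale (SE 0.07, 95% interval -0.41 to -0.10, adjusted p = 0.0163). The call was lost without MGT+shScd1 library 1 (-0.30, adjusted p = 0.0776), without MGT+shScd1 library 2 (-0.22, adjusted p = 0.179) and without MGT+shNT library 2 (-0.21, adjusted p = 0.0526). Lss, lanosterol synthase, had 25.3 and 29.6 CPM in MGT+shScd1 and 34.0 and 31.1 CPM in MGT+shNT. It missed the threshold (-0.25, adjusted p = 0.0809), and with each library left out it lay between -0.37 and -0.14. Fdft1, squalene synthase, had 36.1 and 33 CPM in MGT+shScd1, against 33.6 and 31.4 CPM in MGT+shNT (0.086, adjusted p = 0.517). Fdft1 shares 774 exonic bases with Ctsb on the opposite strand, which had 62800 counts against 2489 for Fdft1, so with the strand setting unknown its value is uncertain.

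Past lanosterol, 1 of 9 genes fell, with a median log2 fold change of -0.19. Msmo1, which oxidizes the methyl groups at the fourth carbon (chromosome 8, 64718139 to 64733792, minus strand), had 45.9 and 44.0 CPM in MGT+shScd1, against 57.8 and 51.6 CPM in MGT+shNT. The groups did not overlap, and the log2 fold change was -0.29 (SE 0.08, 95% interval -0.46 to -0.12, adjusted p = 0.0150). The call was lost without MGT+shScd1 library 1 (-0.32, adjusted p = 0.0925), without MGT+shScd1 library 2 (-0.25, adjusted p = 0.156) and without MGT+shNT library 1 (-0.19, adjusted p = 0.137). Cyp51, the lanosterol demethylase, came close to the threshold at 56.7 and 54.1 CPM in MGT+shScd1, against 62.5 and 64.1 CPM in MGT+shNT (-0.19, adjusted p = 0.0524). Its exons share 166 bases with Akap9 on the opposite strand (8593 counts, against 4368 for Cyp51). Hsd17b7, the 3-ketosteroid reductase, had 24.5 and 24.3 CPM in MGT+shScd1, against 29.0 and 28.8 CPM in MGT+shNT (-0.25, adjusted p = 0.0571). In both genes the groups did not overlap, without reaching the threshold.

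Dhcr7, which reduces 7-dehydrocholesterol to cholesterol, had 12.2 and 13.1 CPM in MGT+shScd1, against 16.5 and 14.8 CPM in MGT+shNT. Its log2 fold change was -0.31 (adjusted p = 0.0733) and, with each library left out, between -0.39 and -0.22. Lbr, a sterol reductase that is also a receptor of the nuclear lamina, had 18.7 and 15.7 CPM in MGT+shScd1 and 20.9 and 21.6 CPM in MGT+shNT (-0.30, adjusted p = 0.0668). Tm7sf2, the reductase with the same activity as Lbr, had 7.90 and 8.56 CPM in MGT+shScd1 and 7.76 and 8.33 CPM in MGT+shNT (0.038, adjusted p = 0.885). Tm7sf2 shares 532 exonic bases with Vps51 on the same strand. The remaining 3, Nsdhl, Ebp and Sc5d, lay between -0.15 and 0.048 and did not pass the test.

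In the SREBP switch, 2 of 5 genes fell, Insig1 and Srebf1, at a median of -0.21. Insig1, the sterol-dependent anchor that holds SCAP in the endoplasmic reticulum and is itself a target of SREBP-2 (chromosome 5, 28071363 to 28078662, plus strand), had 33.3 and 33.2 CPM in MGT+shScd1 libraries 1 and 2, against 47.7 and 50.03 CPM in MGT+shNT libraries 1 and 2. The libraries of each group lay close together and far from the other group, with means of 33.3 ± 0.0801 CPM in MGT+shScd1 and 48.9 ± 1.64 CPM in MGT+shNT (SD, n = 2 each). The log2 fold change was -0.55 (SE 0.08, 95% interval -0.72 to -0.38, adjusted p = 0.000144), a fall of 31.8% in the ratio of the fit, and with each library left out it stayed between -0.58 and -0.52. Its relative Insig2, which also holds SCAP back, had 40.0 and 38.0 CPM in MGT+shScd1, against 49.3 and 42.5 CPM in MGT+shNT. Insig2 missed the threshold (-0.24, SE 0.09, adjusted p = 0.0543). With each library left out, its log2 fold change lay between -0.34 and -0.11. The difference between the INSIG genes was not tested.

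The genes of the transcription factors themselves differed less than Insig1. Srebf1, which encodes the SREBP-1 forms that favour fatty acid genes (chromosome 11, 60199089 to 60222581, minus strand), had 66.0 and 63.3 CPM in MGT+shScd1, against 77.7 and 71.6 CPM in MGT+shNT. All values in MGT+shScd1 were below those in MGT+shNT, and the log2 fold change was -0.21 (SE 0.07, 95% interval -0.36 to -0.059, adjusted p = 0.0376). The call was lost without MGT+shScd1 library 1 (-0.24, adjusted p = 0.146), without MGT+shScd1 library 2 (-0.18, adjusted p = 0.267) and without MGT+shNT library 1 (-0.14, adjusted p = 0.252), and in FPKM the groups overlapped, at 12.1 and 11.6 FPKM in MGT+shScd1 and 13.6 and 12 FPKM in MGT+shNT. Counts per gene do not separate the SREBP-1a and SREBP-1c transcripts, and 109 exonic bases of Srebf1 lie under Rai1 on the opposite strand (5839 counts, against 5148 for Srebf1). Srebf2 (chromosome 15, 82147181 to 82205379, plus strand) had 114 and 117 CPM in MGT+shScd1, against 118 and 114 CPM in MGT+shNT. The ranges coincided, and the 95% interval of its log2 fold change was -0.13 to 0.13 (adjusted p = 0.963). Scap, the escort protein, had 77.0 and 75.0 CPM in MGT+shScd1 and 83.1 and 80.3 CPM in MGT+shNT (adjusted p = 0.250).

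Among the sterol carriers, 1 of 3 fell. Stard4, a soluble protein that carries sterol between the plasma membrane and the endoplasmic reticulum and is a known SREBP-2 target (chromosome 18, 33199355 to 33213862, minus strand), had 34.0 and 35.1 CPM in MGT+shScd1 libraries 1 and 2, against 58.1 and 63.9 CPM in MGT+shNT libraries 1 and 2. Every MGT+shScd1 value lay well below every MGT+shNT value, with means of 34.6 ± 0.776 CPM in MGT+shScd1 and 61.0 ± 4.10 CPM in MGT+shNT (SD, n = 2 each). The log2 fold change was -0.81 (SE 0.08, 95% interval -0.98 to -0.64, adjusted p = 5.79e-06) and, with each library left out, between -0.88 and -0.75. In FPKM the gap was as plain, at 6.30 and 6.49 FPKM in MGT+shScd1 and 10.3 and 10.8 FPKM in MGT+shNT. Npc1, the membrane protein that passes lysosomal cholesterol on, had 85.1 and 90.0 CPM in MGT+shScd1, against 99.9 and 97.1 CPM in MGT+shNT (-0.17, SE 0.06, adjusted p = 0.0597). With each library left out, Npc1 lay between -0.21 and -0.13, and its exons share 511 bases with Rmc1 on the opposite strand. Its partner Npc2 had 320 and 315 CPM in MGT+shScd1 and 343 and 325 CPM in MGT+shNT (-0.074, SE 0.058, adjusted p = 0.379).

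**Figure D3:**
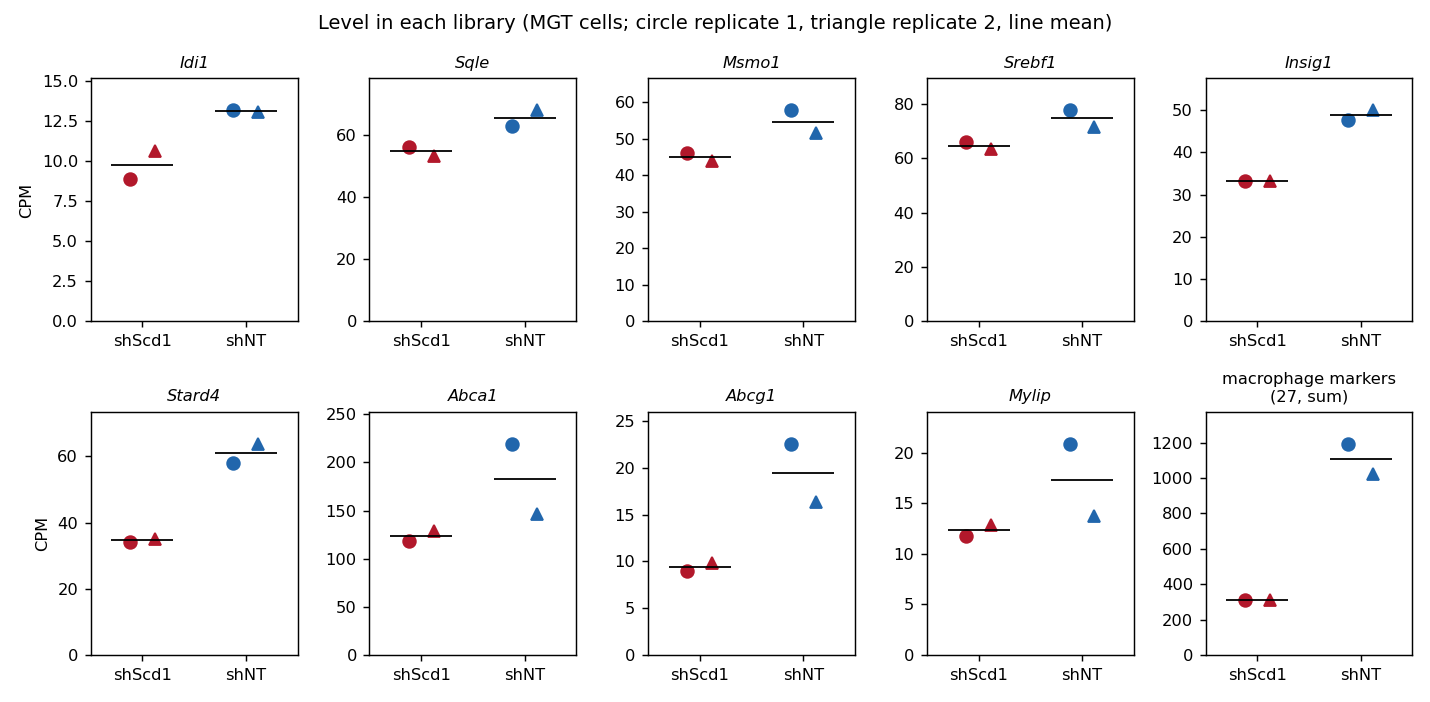
CPM in each library for the 9 genes that fell and, in the last panel, for the 27 macrophage markers summed; MGT+shScd1 in red on the left, MGT+shNT in blue on the right, circles replicate 1, triangles replicate 2, lines group means, all axes from 0. Insig1 and Stard4 have tight groups far apart, while Abca1 and Mylip have MGT+shNT library 1 high (220 and 20.9 CPM) and MGT+shNT library 2 near the MGT+shScd1 libraries (147 and 13.7 CPM).

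On the LXR side, the targets fell and the receptors did not pass the test. Abca1, Abcg1 and Mylip were called lower, 3 of 5 genes, with a median of -0.51. Nr1h2 (LXR beta) had 60.0 and 64.3 CPM in MGT+shScd1, against 70.3 and 66.8 CPM in MGT+shNT, a fold change of -0.14 on the log2 scale (SE 0.07, 95% interval -0.29 to 0.008, adjusted p = 0.149). Nr1h3 (LXR alpha) had 16.7 and 15.6 CPM in MGT+shScd1, against 15.9 and 16.0 CPM in MGT+shNT, a fold change of 0.02 on the log2 scale (SE 0.11, 95% interval -0.23 to 0.26, adjusted p = 0.919). The values of Nr1h3 overlapped and those of Nr1h2 did not.

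Abcg1, the pump that passes cholesterol to HDL particles (chromosome 17, 31057675 to 31117988, plus strand), had 9.02 and 9.81 CPM in MGT+shScd1 libraries 1 and 2, against 22.6 and 16.3 CPM in MGT+shNT libraries 1 and 2. Both MGT+shNT libraries were higher, library 1 more than library 2. The log2 fold change was -1.06 (SE 0.15, 95% interval -1.40 to -0.73, adjusted p = 0.000193), the largest fall among the 33 genes in the edgeR fit. It was called with each library left out, between -1.27 and -0.78, and by DESeq2, but not on log2(FPKM + 1) (-0.61, adjusted p = 0.0899) or log2(FPKM + 0.1) (-0.88, adjusted p = 0.0757).

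Abca1, the pump that loads cholesterol onto apolipoprotein A-I (chromosome 4, 53030787 to 53159895, minus strand), had 118 and 129 CPM in MGT+shScd1, against 220 and 147 CPM in MGT+shNT. MGT+shNT library 1 stood well above the other 3 libraries. The log2 fold change was -0.57 (SE 0.13, 95% interval -0.86 to -0.29, adjusted p = 0.00461), but -0.24 (adjusted p = 0.00734) without MGT+shNT library 1, -0.83 (adjusted p = 1.91e-31) without MGT+shNT library 2, and not called without MGT+shScd1 library 1 (-0.52, adjusted p = 0.115) or by DESeq2 (adjusted p = 0.223). Mylip, a ubiquitin ligase that limits lipoprotein uptake (chromosome 13, 45389742 to 45412022, plus strand), had 11.8 and 12.8 CPM in MGT+shScd1, against 20.9 and 13.7 CPM in MGT+shNT. Here too MGT+shNT library 1 was the high one, and in FPKM the groups overlapped, at 3.77 and 4.09 FPKM in MGT+shScd1 and 6.38 and 4.01 FPKM in MGT+shNT. The log2 fold change was -0.51 (SE 0.17, 95% interval -0.87 to -0.15, adjusted p = 0.0354) and -0.15 (adjusted p = 0.542) without MGT+shNT library 1. The call was also lost without MGT+shScd1 library 1 (-0.45, adjusted p = 0.262) and without MGT+shScd1 library 2 (-0.57, adjusted p = 0.127).

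Macrophages are rich in ABCA1 and ABCG1, and most macrophage markers tested were also lower in MGT+shScd1. Of 26 markers tested, 19 were lower, 1 was higher (C1qb) and 6 did not pass the test. Their summed level was 311 and 312 CPM in MGT+shScd1 libraries 1 and 2, against 1195 and 1024 CPM in MGT+shNT libraries 1 and 2. The sum was thus high in both MGT+shNT libraries. Abca1 and Mylip differed more between MGT+shNT libraries 1 and 2, at 220 and 147 CPM and at 20.9 and 13.7 CPM. Lyz2, the lysozyme of macrophages and the largest part of the summed level, had 126 and 118 CPM in MGT+shScd1 and 568 and 552 CPM in MGT+shNT. Csf1r, the macrophage growth factor receptor, had 9.42 and 10.6 CPM in MGT+shScd1 and 24.8 and 8.12 CPM in MGT+shNT, high in MGT+shNT library 1 alone. Several other markers were also much higher in MGT+shNT library 1 than in MGT+shNT library 2. Examples were Laptm5 (31.0 and 15.5 CPM), Mrc1 (13.4 and 5.74 CPM) and Cd14 (13.3 and 5.32 CPM). C1qa (5.72 and 6.51 CPM) and Ms4a7 (21.3 and 24.4 CPM) went the other way. Cd163 had 4 counts in MGT+shScd1 and 0 in MGT+shNT. The part of macrophage RNA in the lower levels of Abca1, Abcg1 and Mylip was not tested.

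Set side by side, 5 of the 25 synthesis and SREBP genes fell (20%) at a median of -0.18, and 3 of the 5 LXR-side genes fell (60%) at a median of -0.51; no gene on either side rose. By role within the SREBP side, 3 of 20 enzymes (15%) and 2 of 5 switch genes were called. Over all genes tested 16.3% were lower, so the shares of the synthesis and SREBP genes and of the enzymes lie near the background. Without MGT+shNT library 1 the medians were -0.15 on the LXR side and -0.10 on the synthesis and SREBP side. Both sides had lower members and no higher ones in each alternative run except the LXR side in FPKM, where limma called 0 of the 5 and 1 was lower at an unadjusted p below 0.05. Whether the sides differ was not tested.

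**Figure D4:**
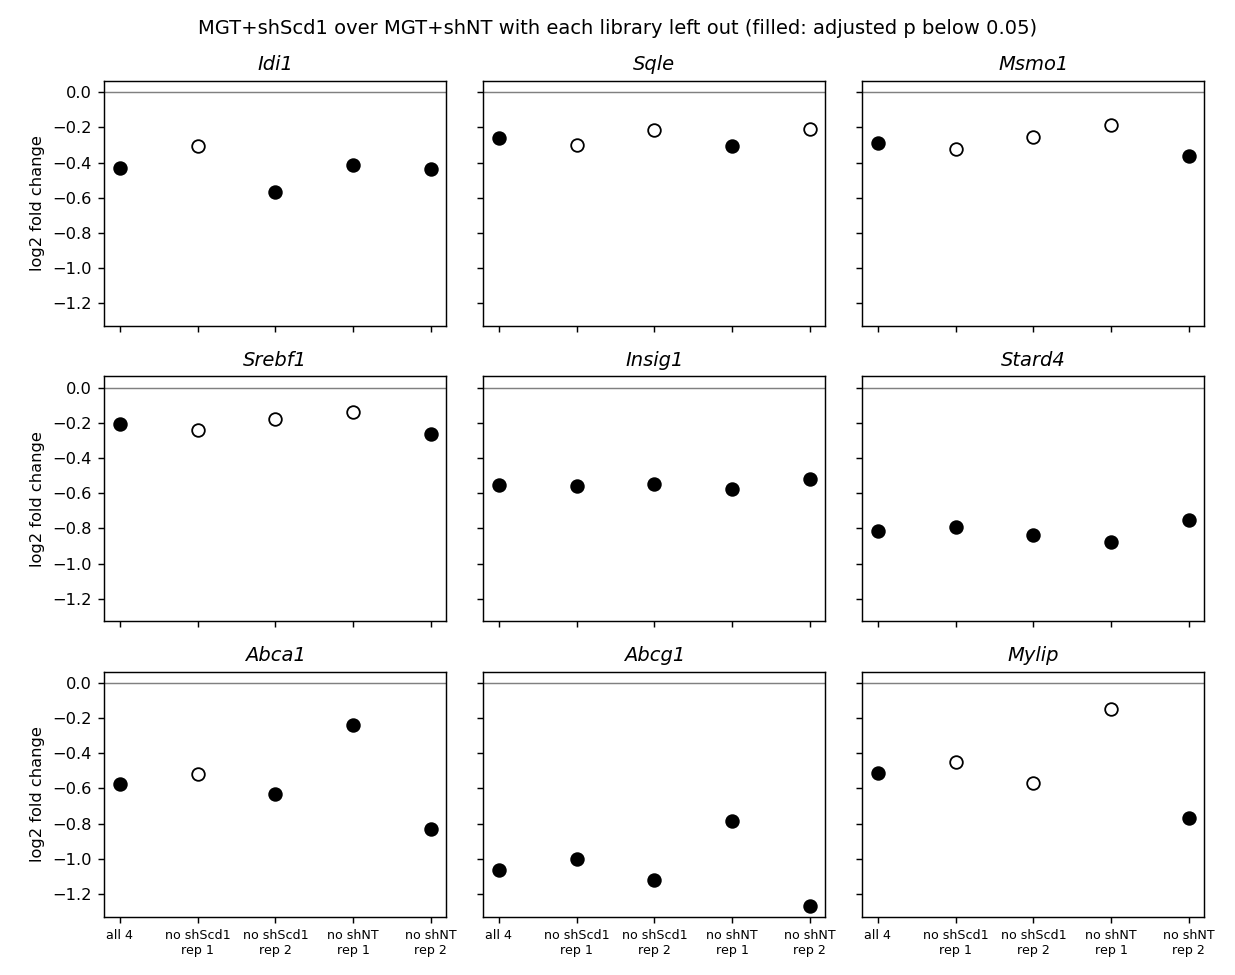
Log2 fold change of the 9 genes that fell, MGT+shScd1 over MGT+shNT, with all 4 libraries and with each library left out in turn; filled points have an adjusted p below 0.05 in edgeR. Insig1 (-0.58 to -0.52) and Stard4 (-0.88 to -0.75) hardly move, Abcg1 stays called between -1.27 and -0.78, and Abca1 and Mylip come closest to 0 without MGT+shNT library 1 (-0.24 and -0.15).

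Genes of the same pathways that are not among the 33 were called in both directions. Of 95 such genes tested in 8 lists, 19 rose (20%) and 28 fell (29.5%), at a median of -0.026, where 13.1% of all genes tested were higher and 16.3% lower. Known SREBP-2 targets gave 3 lower and 0 higher of 8, with 0 higher also at an unadjusted p below 0.05 and by DESeq2. Acly, which makes cytosolic acetyl-CoA from citrate, had 107 and 108 CPM in MGT+shScd1, against 142 and 148 CPM in MGT+shNT, and fell (-0.43, SE 0.06, adjusted p = 0.000121). The groups were far apart for their spread, and Acly stayed called with each library left out. Pip4p1 fell by 0.30 on the log2 scale (adjusted p = 0.0291), a call lost without MGT+shScd1 library 1 (adjusted p = 0.0531), without MGT+shScd1 library 2 (adjusted p = 0.322) and without MGT+shNT library 1 (adjusted p = 0.181).

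Of 9 other enzymes and partners of synthesis, 3 rose and 2 fell. Por, the electron donor of the P450 enzymes, was at -0.26 (adjusted p = 0.0303), and was called without MGT+shNT library 2 but not without any 1 of the other libraries (adjusted p = 0.0629 to 0.316).

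Among 12 other regulators of SREBP, 3 rose and 3 fell. The paired endoplasmic reticulum proteins Erlin1 and Erlin2, which in human cells bind cholesterol and restrain SREBP, moved in opposite directions. Erlin2 had 160 and 154 CPM in MGT+shScd1, against 113 and 113 CPM in MGT+shNT, a fold change of 0.47 on the log2 scale (SE 0.06, adjusted p = 4.71e-05), and Erlin1 had 17.4 and 20.6 CPM in MGT+shScd1, against 27.8 and 25.3 CPM in MGT+shNT, a fold change of -0.49 on the log2 scale (SE 0.11, adjusted p = 0.00453). Erlin2 was called in all 12 alternatives, and Erlin1 lost its call without MGT+shScd1 library 1 (adjusted p = 0.107) and in FPKM. Spring1, a factor of the protease that cuts SREBP, was at -0.41 (adjusted p = 0.00996) and was not called without MGT+shScd1 library 1 (adjusted p = 0.0977), MGT+shScd1 library 2 (adjusted p = 0.0900) or MGT+shNT library 1 (adjusted p = 0.102).

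Further LXR targets and partners gave 3 higher and 4 lower of 11. Apoe, the apolipoprotein that takes up effluxed cholesterol, had 81.5 and 73.1 CPM in MGT+shScd1, against 315 and 321 CPM in MGT+shNT, a fold change of -2.04 on the log2 scale (SE 0.07, adjusted p = 3.50e-10). Macrophages express it strongly, and 19 of 26 macrophage markers fell as well; their part in this value was not tested. Pltp, the phospholipid transfer protein, had 14.2 and 13.7 CPM in MGT+shScd1, against 25.5 and 21.3 CPM in MGT+shNT, a log2 fold change of -0.75 (adjusted p = 0.000344). Both stayed called with each library left out. Rxrg, a partner receptor present at 1.72 and 1.66 CPM in MGT+shScd1 and 2.91 and 3.99 CPM in MGT+shNT, was at -1.01 (adjusted p = 0.0218). It was not called without MGT+shScd1 library 1 (adjusted p = 0.146), MGT+shScd1 library 2 (adjusted p = 0.143) or MGT+shNT library 2 (adjusted p = 0.0688).

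Storage and uptake genes gave 1 higher and 3 lower of 11. Lipa, the lysosomal acid lipase that frees cholesterol from its esters, had 72.2 and 71.0 CPM in MGT+shScd1, against 147 and 147 CPM in MGT+shNT (-1.04, SE 0.06, adjusted p = 5.89e-08). As with Apoe, 19 of 26 macrophage markers fell too, and the part of macrophage RNA in the Lipa value was not tested. Cav1, the coat protein of cholesterol-rich caveolae, had 30.7 and 33.6 CPM in MGT+shScd1, against 119 and 111 CPM in MGT+shNT (-1.84, SE 0.07, adjusted p = 2.23e-09). Both were called in all 12 alternatives, and both groups were tight in each gene. Vldlr was at 0.24 (adjusted p = 0.0129) and not called without MGT+shScd1 library 1 (adjusted p = 0.0938), MGT+shScd1 library 2 (adjusted p = 0.142) or MGT+shNT library 2 (adjusted p = 0.0532). Of 22 genes of transfer between membranes, 4 rose and 10 fell. The oxysterol-binding proteins Osbpl8 (-0.57, adjusted p = 2.00e-05) and Osbpl2 (-0.45, adjusted p = 0.000512) fell and stayed called with each library left out, while Osbpl3 was at 0.58 (adjusted p = 0.0213) and not called without MGT+shScd1 library 2 (adjusted p = 0.249) or MGT+shNT library 1 (adjusted p = 0.0881).

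Enzymes that make or use oxysterols gave 1 higher and 1 lower of 6. Cyp46a1, the cholesterol 24-hydroxylase, was low, at 4.05 and 3.58 CPM in MGT+shScd1 and 1.55 and 2.52 CPM in MGT+shNT (0.94, adjusted p = 0.0310), and kept its call with MGT+shNT library 2 left out but not with any 1 of the others (adjusted p = 0.123 to 0.248). Ch25h, the cholesterol 25-hydroxylase, had 23.1 and 22.6 CPM in MGT+shScd1, against 24.9 and 37.4 CPM in MGT+shNT, high in MGT+shNT library 2 alone. Its log2 fold change was -0.43 (adjusted p = 0.0439), and -0.13 (adjusted p = 0.446) without that library; it was not called without MGT+shScd1 library 1 (adjusted p = 0.214) or library 2 (adjusted p = 0.208) either. Of 16 genes of the isoprenoid branch, 4 rose and 2 fell. Rabggta, a subunit of the Rab prenyl transferase (0.47, adjusted p = 0.0184), and Rce1, the protease of prenylated proteins (0.41, adjusted p = 0.0259), rose, and Nus1, a subunit of the dolichol-making transferase, fell (-0.38, adjusted p = 0.00219). Rabggta and Rce1 were not called without MGT+shScd1 library 1 (adjusted p = 0.197 and 0.196), MGT+shScd1 library 2 (adjusted p = 0.0576 and 0.0970) or MGT+shNT library 2 (adjusted p = 0.0590 and 0.0888). Nus1 was not called without MGT+shScd1 library 2 (adjusted p = 0.0652).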

How the data were processed

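RNA-seq of 4 libraries was used, 2 MGT+shScd1 and 2 MGT+shNT. The authors deposited raw read counts per gene, unpooled whole numbers with no normalisation, as the file headers and values show. The FPKM in the same deposited table equalled the value recomputed from the count, the table's gene length and the library total for 100% of values (tolerance 0.005). Per the submitters' processing notes, Trimmomatic 0.36, Subread 1.5.1, featureCounts and SAMtools were used with build mm10; no source used here gives the aligner, annotation release or strand setting. Per the labels' protocols, stranded paired-end libraries followed depletion of ribosomal RNA, while another label names polyA RNA. The count columns of MGT+shScd1 carry an extra digit and were matched to replicates 1 and 2 by their last digit. The deposited coordinates were not used; positions are from GENCODE M21 (GRCm38).

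Total counts were 19104319 and 18679918 in MGT+shScd1 libraries 1 and 2 and 20894972 and 15135227 in MGT+shNT libraries 1 and 2. Genes kept by filterByExpr (minimum count 10, minimum total 15) entered edgeR's quasi-likelihood test (edgeR 4.0.16, R 4.3.3; TMM; two-sided, group as the only term). P-values were adjusted by Benjamini-Hochberg over 16234 genes and a gene was called, and is said to rise or fall, at an adjusted p below 0.05. Fold changes divide MGT+shScd1 by MGT+shNT; standard errors and 95% intervals come from the fit. The code was tested on simulated data. Replicates differed by more than sampling noise (chi-square per degree of freedom 2.82 in MGT+shScd1 and 43.6 in MGT+shNT), so all 4 libraries were counted. These values used raw totals and did not leave out Rn18s-rs5, at 0.199% and 3.32% of counts in MGT+shNT libraries 1 and 2. The MGT+shNT value is therefore no measure of the spread of most genes. Neither value shows that the replicates came from separate cultures. The 12 alternatives were DESeq2 size factors, DESeq2 1.42.0, limma-voom (limma 3.58.1), no low-count filter, a count of at least 50 in at least 2 libraries, limma on log2(FPKM + 1) and log2(FPKM + 0.1) for genes with a mean FPKM of at least 0.1, a replicate block, and each library left out in turn, the lone library then being assumed to vary like the other group.

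The 33 genes, the related lists and the marker lists were chosen with earlier results of these data known. Statistics are given for called genes and for pairs of like function, and outside the 33 for up to 3 called genes with the largest change per related list; Tmem55b is an older name of Pip4p1 and was counted once. Some genes that this choice would name are not reported here. Promoter windows are from RefSeq. All value columns of the table were used.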

Additional observations from a re-analysis of the deposited data

How the results depend on the processing

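The 9 genes called lower were lower under all 12 alternatives, and Insig1 (-0.58 to -0.42) and Stard4 (-0.88 to -0.64) were called in each. Abcg1 was called in 10 of 12, Abca1 and Idi1 in 8, and Sqle, Msmo1, Srebf1 and Mylip in 6. Scd1 was called lower under all 12, between -3.53 and -3.10 with each library left out. The count of the 33 genes called lower was 9; it was 3 with DESeq2, 2 on log2(FPKM + 1), 2 on log2(FPKM + 0.1), and 3 to 13 with each library left out. For the synthesis and SREBP genes (5 lower) the values were 1, 1, 1 and 1 to 8, and for the LXR side (3 lower) they were 1, 0, 0 and 1 to 3, with 1 LXR gene lower at an unadjusted p below 0.05 on either FPKM scale. Related genes (19 higher, 28 lower) gave 8 higher with DESeq2, 9 higher and 5 lower on log2(FPKM + 1), 9 higher and 6 lower on log2(FPKM + 0.1), and 5 to 15 higher and 12 to 27 lower with each library left out. Over all genes (2122 higher, 2641 lower) the counts were 1164 and 1695 with DESeq2, 1242 and 810 on log2(FPKM + 1), 1305 and 857 on log2(FPKM + 0.1), and 860 to 2386 higher and 1357 to 2945 lower with each library left out; 44.6% of calls were higher, against 60.5% and 60.4% on the FPKM scales. FPKM divides by totals without TMM factors; the cause of the other shifts was not tested.

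The sign turned for genes that were not called: on log2(FPKM + 1) and log2(FPKM + 0.1), Mvk (0.058 and 0.067), Ggps1 (0.073 and 0.079), Srebf2 (0.087 and 0.092) and Npc2 (0.0228 and 0.0232). Srebf2 was also positive without a filter (0.000412) and with a count of at least 50 (0.00788). With each library left out, the ranges that crossed 0 were -0.075 to 0.11 (Acat2), -0.059 to 0.0101 (Mvk), -0.16 to 0.37 (Pmvk), -0.046 to 0.018 (Ggps1), -0.021 to 0.091 (Tm7sf2), -0.22 to 0.029 (Nsdhl), -0.026 to 0.12 (Ebp), -0.033 to 0.033 (Srebf2) and -0.0303 to 0.067 (Nr1h3).

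Same-numbered libraries did not deviate together (correlation -0.0079, 2 pairs). With 2 libraries per group, this cannot show whether replicate numbers pair the samples. With the replicate block, 2253 genes were higher and 2737 lower, and 11 of the 33 genes were lower, Lbr (adjusted p = 0.0498) and Insig2 (adjusted p = 0.0405) in addition; the 5 synthesis and SREBP calls became 7 and the LXR count stayed 3, while related genes gave 17 higher and 28 lower. Pmvk, the gene with the fewest counts of the 33 (585 in all), had a 95% interval of -0.37 to 0.48.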
